A study of Caenorhabditis elegans with 8 samples.

Results

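The heterochronic genes lin-14, lin-28, hbl-1, lin-46, lin-41, lin-29 and lin-42 were followed through the 8 RNA libraries of a study of Caenorhabditis elegans. They were picked by gene name, and 7 of the 7 were listed both in the L1 table and in the embryo table, among 13335 genes listed in both and 16606 listed in either. The libraries formed 4 groups of 2: FAS43 L1 larvae, N2 L1 larvae, FAS43 mixed-stage embryos and N2 mixed-stage embryos. N2 is the laboratory wild type. FAS43 carries mutations in its genes for the replacement histone H3.3: the allele uge44 covers his-69 and his-70 on chromosome III, tm2066 is in his-72 on III, uge18 in his-74 on V and ok2289 in his-71 on X. Animals were grown at 20 °C, and RNA was extracted with Trizol and made into stranded mRNA libraries. The age of the larvae within the L1 stage, their feeding and the spread of ages in the embryo mixtures are not stated. The 2 libraries of a group are labelled as duplicates with no mention of independent cultures, so the p-values rest on a spread that may be partly technical.

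Heterochronic genes set which larval stage a cell behaves as. When one is lost, the skin stem cells, called seam cells, skip or repeat the divisions of a stage. Early-acting genes are switched off as larvae grow by the microRNAs lin-4 and let-7 and the relatives of let-7, which bind sites in the 3' untranslated regions of their messages. The transcription factor LIN-14 and the RNA-binding protein LIN-28 are classic lin-4 targets; HBL-1, a zinc-finger protein related to Hunchback of Drosophila, and the TRIM-NHL protein LIN-41 are let-7 family targets. LIN-28 also hinders the maturation of let-7. LIN-46, related to the scaffold protein gephyrin, acts downstream of LIN-28. LIN-29 is the zinc-finger factor that drives the final step to adult skin, and LIN-42, related to the Period clock proteins of flies and mammals, cycles with the molts. The microRNAs themselves were not analysed here.

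Libraries held 17408914 to 30127179 counts. The H3.3 genes checked the genotype: his-71 was at 0.218 and 0.303 CPM (counts scaled to library size, jointly over the 8 libraries) in FAS43 L1 larvae and at 153 and 226 CPM in N2 L1 larvae, and at 0.108 and 0.109 CPM in FAS43 embryos against 87.3 and 87.5 CPM in N2 embryos. His-72 was at 3.56 and 8.18 CPM in FAS43 L1 larvae, against 363 and 636 CPM in N2 L1 larvae. In FAS43 embryos it was at 1.56 and 1.17 CPM, against 2152 and 899 CPM in N2 embryos. The summed level of 11 of 11 early embryo and maternal markers was 1662 and 693 CPM in FAS43 L1 larvae, 507 and 201 CPM in N2 L1 larvae, 1292 and 3499 CPM in FAS43 embryos and 2926 and 1653 CPM in N2 embryos, so the larval libraries held these messages too. The 7 of 10 L4 and adult markers that were tested in L1 summed to between 7.08 and 11.7 CPM per larval library. This sum alone was scaled over the L1 libraries only. In the larvae, N2 replicate 2 stood apart for several heterochronic genes: the 7 genes together reached 204 CPM there, against 780, 945 and 858 CPM in the other L1 libraries.

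On the WBcel235 assembly, lin-14 lies on the plus strand of chromosome X from 11465560 to 11485871, hbl-1 on the plus strand of X from 5822142 to 5827755, and lin-46 on the plus strand of V from 12968855 to 12970730. The other 4 are on minus strands: lin-28 on I from 8407630 to 8410804, lin-41 on I from 9334800 to 9342496, lin-29 on II from 11917642 to 11935343, and lin-42 on II from 1233236 to 1252359. All 7 are annotated as protein-coding, with 1 transcript for lin-46, 2 each for lin-14, lin-28 and hbl-1, 3 for lin-29, 4 for lin-41 and 7 for lin-42. The tables count genes, so isoforms were not separated. The snoRNA genes T25C12.11 and T25C12.12 lie on the same strand inside exons of lin-14, over 108 and 99 bases. Exons of lin-28 and lin-29 share 16 and 2 bases with F02E9.1 and hmg-12 on the opposite strand. How the counting treated such bases is not stated.

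The stages were compared first. Of the 7 genes, lin-41 rose and lin-42 and hbl-1 fell in N2 L1 larvae relative to N2 embryos, and lin-41 rose in FAS43 L1 larvae relative to FAS43 embryos (edgeR quasi-likelihood test, adjusted p under 0.05). The calls were 3 of 7 in N2, where 38.8% of all genes tested were called (22.6% higher and 16.2% lower), and 1 of 7 in FAS43, where 25.5% were called (15.8% higher and 9.66% lower). A share of 3 or 1 in 7 is near these backgrounds, so the number of calls is no feature of the heterochronic genes. In such whole-animal RNA, fewer cells of a type and less RNA per cell cannot be told apart. Each stage has a table of its own, and comparing the stages takes for granted that reads were counted the same way in both. Below, groups are said to overlap where the ranges of their libraries do. With so few libraries per group, ranges can separate or overlap by chance. The share of all genes that overlapped was not counted, so overlap or its absence describes the libraries and is no test.

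**Figure D1:**
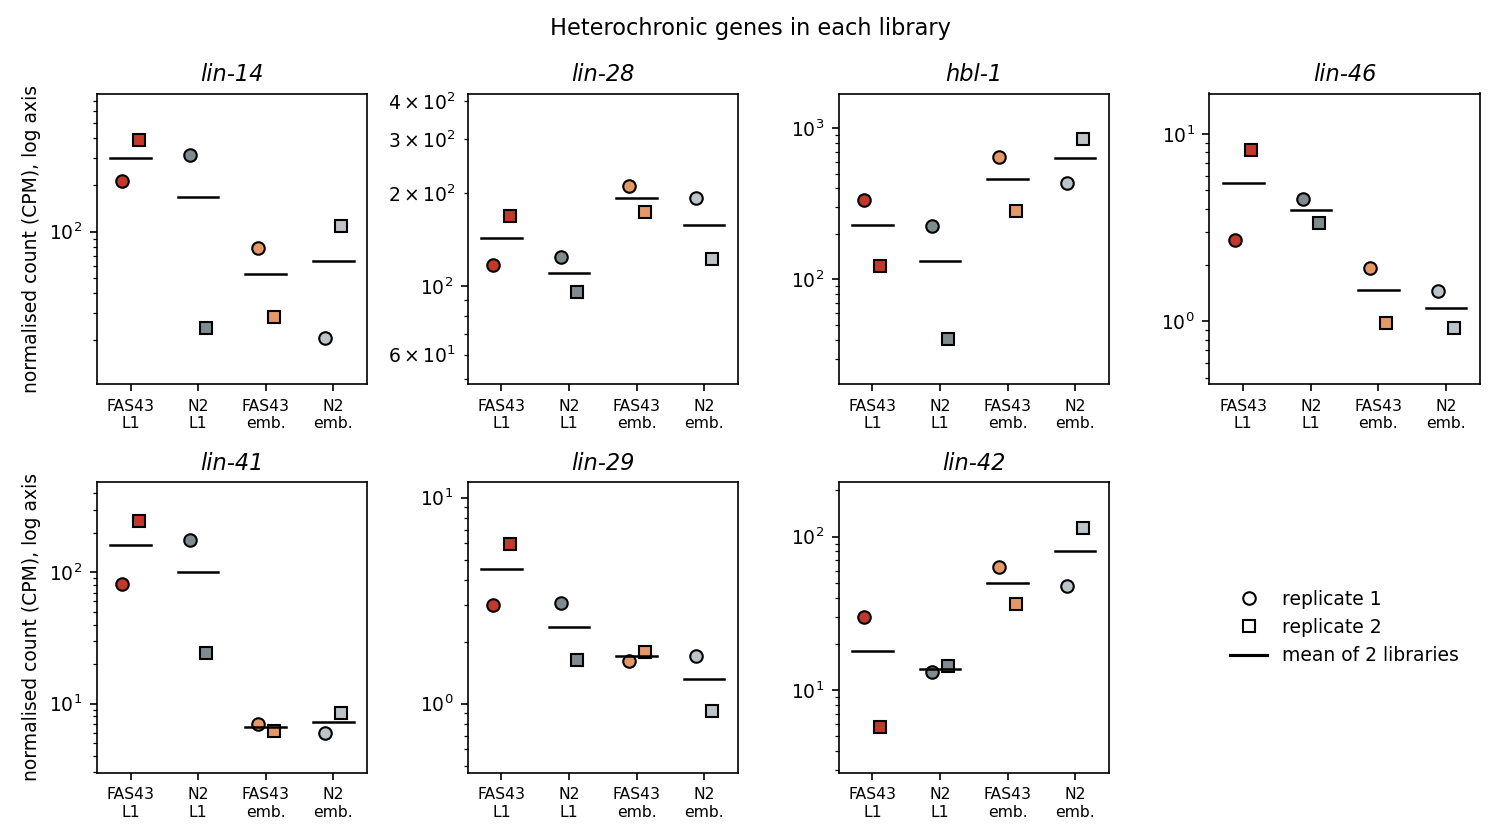
Normalised counts (CPM, log axis) of the 7 heterochronic genes in the 8 libraries, with circles for replicate 1, squares for replicate 2 and a bar for the mean of 2 libraries. Lin-41 lies between 24.2 and 244 CPM in L1 libraries and between 5.94 and 8.42 CPM in embryo libraries, while lin-28 stays between 96.1 and 211 CPM in the 8 libraries.

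Lin-14, which specifies the programs of the first larval stage, was at 212 and 389 CPM in FAS43 L1 larvae, against 79.0 and 28.2 CPM in FAS43 embryos. N2 L1 larvae had 313 and 24.1 CPM, against 20.7 and 109 CPM in N2 embryos. In FAS43 the larvae lay above the embryos; in N2 the stages overlapped, with N2 L1 replicate 2 lying within the range of the N2 embryos. The log2 fold change of 2.49 in FAS43 missed the threshold (SE 0.923, edgeR adjusted p = 0.0547), and that of 1.38 in N2 did too (SE 0.890, edgeR adjusted p = 0.224). DESeq2 called it in FAS43 (adjusted p = 0.0253). EdgeR called it in FAS43 without FAS43 L1 replicate 1 (2.82, edgeR adjusted p = 0.00584) and, at 2.49, without either N2 L1 replicate or either N2 embryo replicate (edgeR adjusted p between 0.0350 and 0.0409). It was not called without FAS43 L1 replicate 2 (1.98, edgeR adjusted p = 0.171), FAS43 embryos replicate 2 (1.93, edgeR adjusted p = 0.304) or FAS43 embryos replicate 1 (3.41, edgeR adjusted p = 0.0671). In N2 it was 2.27 without N2 L1 replicate 2 (edgeR adjusted p = 0.0660), turned to -1.43 without N2 L1 replicate 1 (edgeR adjusted p = 0.262), and reached 3.02 without N2 embryos replicate 2 (edgeR adjusted p = 0.0470).

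Lin-28, the let-7 antagonist, had the smallest log2 fold change between stages of the 7 in both genotypes. It was at 117 and 170 CPM in FAS43 L1 larvae, against 211 and 174 CPM in FAS43 embryos, and at 125 and 96.1 CPM in N2 L1 larvae, against 194 and 123 CPM in N2 embryos. The FAS43 larvae lay just below the FAS43 embryos, and in N2 the stages overlapped. Its log2 fold changes were -0.43 in FAS43 (SE 0.522, edgeR adjusted p = 0.568) and -0.52 in N2 (SE 0.522, edgeR adjusted p = 0.439). Over the 12 alternatives they ran from -0.72 to -0.24 in FAS43 and from -0.81 to -0.16 in N2. Neither test shows that the level stayed the same.

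Hbl-1, the Hunchback-related factor of early larval programs, was at 334 and 122 CPM in FAS43 L1 larvae, against 640 and 285 CPM in FAS43 embryos. It was at 225 and 40.6 CPM in N2 L1 larvae, against 432 and 847 CPM in N2 embryos. The stages overlapped in FAS43 and did not in N2. The log2 fold change was -1.02 in FAS43 (SE 0.751, edgeR adjusted p = 0.319) and -2.27 in N2 (SE 0.779, edgeR adjusted p = 0.0288). The N2 call rested on 3 libraries: without N2 L1 replicate 2 the value was -1.51 (edgeR adjusted p = 0.193), without N2 embryos replicate 2 it was -1.70 (edgeR adjusted p = 0.127), and without N2 embryos replicate 1 it was -2.67 (edgeR adjusted p = 0.0591). Without N2 L1 replicate 1 it was -3.98 and stayed called (edgeR adjusted p = 0.0141).

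Lin-46, which acts downstream of lin-28, was a sparse message. It had 75 and 163 raw counts in FAS43 L1 larvae and 135 and 60 in N2 L1 larvae, against 36 and 27 in FAS43 embryos and 40 and 26 in N2 embryos. In FAS43 that is 2.73 and 8.23 CPM in L1 larvae, against 1.94 and 0.985 CPM in embryos. In N2 it is 4.51 and 3.37 CPM in L1 larvae, against 1.45 and 0.924 CPM in embryos, and the stages overlapped in neither genotype. Its log2 fold changes of L1 over embryos were 1.91 in FAS43 (SE 0.789, edgeR adjusted p = 0.0808) and 1.73 in N2 (SE 0.785, edgeR adjusted p = 0.0866), not called by edgeR; DESeq2 called both (adjusted p = 0.0283 in FAS43 and 0.0471 in N2). Without FAS43 L1 replicate 1 the FAS43 value was 2.45, which edgeR called (adjusted p = 0.0393). It was 0.91 without FAS43 L1 replicate 2 (edgeR adjusted p = 0.620) and 1.49 without FAS43 embryos replicate 2 (edgeR adjusted p = 0.350).

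Lin-41, the RNA-binding repressor that let-7 switches off late in larval life, had the clearest difference. It was at 81.3 and 244 CPM in FAS43 L1 larvae, against 6.95 and 6.20 CPM in FAS43 embryos. In N2 it was at 176 and 24.2 CPM in L1 larvae, against 5.94 and 8.42 CPM in embryos. The L1 and embryo libraries did not overlap in either genotype, and N2 L1 replicate 2 was the lowest larval library. The log2 fold change of L1 over embryos was 4.63 in FAS43 (SE 0.833, edgeR adjusted p = 0.00204) and 3.80 in N2 (SE 0.800, edgeR adjusted p = 0.00182). In FAS43 the adjusted p stayed at or below 0.0448 over the 12 alternatives. In N2 the call was lost without N2 L1 replicate 1, which leaves the low library alone, with a log2 fold change of 1.75 and an edgeR adjusted p of 0.0734. Without N2 L1 replicate 2 the value was 4.61 (edgeR adjusted p = 0.00287).

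Lin-29, the effector of the larva-to-adult step, was sparse too. Its raw counts were 83 and 118 in FAS43 L1 larvae and 92 and 29 in N2 L1 larvae, against 30 and 49 in FAS43 embryos and 47 and 26 in N2 embryos. That is 3.02 and 5.96 CPM in FAS43 L1 larvae, against 1.62 and 1.79 CPM in FAS43 embryos. N2 L1 larvae had 3.07 and 1.63 CPM, against 1.70 and 0.924 CPM in N2 embryos. The FAS43 stages did not overlap and the N2 stages did. The log2 fold changes of 1.39 in FAS43 (SE 0.747, edgeR adjusted p = 0.171) and 0.85 in N2 (SE 0.744, edgeR adjusted p = 0.376) did not pass.

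Lin-42 encodes the Period-like protein whose message cycles with the molts. It was at 29.9 and 5.76 CPM in FAS43 L1 larvae, against 63.3 and 36.2 CPM in FAS43 embryos. N2 L1 larvae had 13.1 and 14.2 CPM, against 47.3 and 113 CPM in N2 embryos. Every embryo library lay above every larval one. The log2 fold change was -1.48 in FAS43 (SE 0.702, edgeR adjusted p = 0.124, not called) and -2.56 in N2 (SE 0.728, edgeR adjusted p = 0.0111). Without FAS43 L1 replicate 1, the larval library with the most lin-42, the FAS43 value was -3.16 (edgeR adjusted p = 0.00750), and without FAS43 L1 replicate 2 it was -0.74 (edgeR adjusted p = 0.632). The N2 call was lost without N2 embryos replicate 2 (-1.79, edgeR adjusted p = 0.0766), N2 L1 replicate 1 (-2.50, edgeR adjusted p = 0.0826) or N2 L1 replicate 2 (-2.62, edgeR adjusted p = 0.0795).

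**Figure D2:**
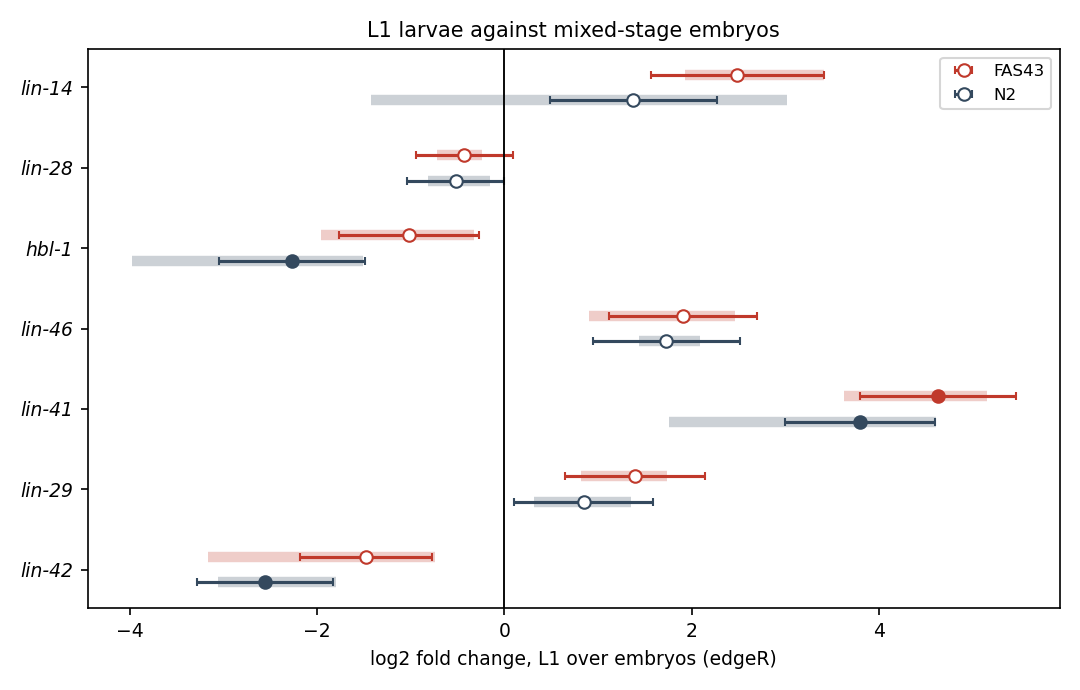
Log2 fold changes of L1 over embryos for each gene in FAS43 (upper marker of each pair) and N2 (lower marker), with bars for 1 SE and pale bands for the range over the 12 alternatives. Filled markers passed the test at an adjusted p under 0.05: lin-41 in both genotypes, and hbl-1 and lin-42 in N2.

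Levels of different genes were compared per length, as CPM per 1000 exonic bases. In FAS43 L1 larvae lin-28 (98.7 ± 25.4, SD, n = 2 here and below) and lin-14 (82.0 ± 34.2) led, then hbl-1 (50.9 ± 33.3) and lin-41 (33.9 ± 24.0), and each overlapped its neighbour. Lin-42 (4.45 ± 4.26), lin-46 (4.01 ± 2.85) and lin-29 (1.95 ± 0.903) overlapped each other and lay below lin-41 without overlap. N2 L1 larvae gave the same order: lin-28 (75.9 ± 13.9), lin-14 (45.9 ± 55.7), hbl-1 (29.6 ± 29.1), lin-41 (20.8 ± 22.3), lin-42 (3.40 ± 0.206), lin-46 (2.89 ± 0.588) and lin-29 (1.02 ± 0.442). Each of the first 4 overlapped its neighbour there, lin-42 and lin-46 overlapped, and lin-29 lay alone.

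In FAS43 embryos lin-28 (133 ± 17.9 CPM per 1000 bases) and hbl-1 (103 ± 56.0) overlapped at the top, and lin-14 (14.6 ± 9.78) and lin-42 (12.4 ± 4.78) overlapped far below them. Lin-41 (1.37 ± 0.110), lin-46 (1.07 ± 0.495) and lin-29 (0.739 ± 0.0525) were lowest; lin-46 overlapped both others, and lin-41 lay above lin-29 without overlap. In N2 embryos hbl-1 (143 ± 65.5) and lin-28 (109 ± 34.5) overlapped at the top, lin-42 (20.1 ± 11.7) and lin-14 (17.7 ± 17.0) overlapped in the middle, and lin-41 (1.49 ± 0.366) lay above lin-46 (0.869 ± 0.271) and lin-29 (0.570 ± 0.239), which overlapped. By group means, lin-14 ranked above hbl-1 in larvae and below it in embryos. No gap separated lin-41 from hbl-1 in larvae, whereas in embryos the most lin-41 in any library stayed below the least lin-42.

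The comparison of FAS43 with N2 asks whether the levels of these messages differ in animals with these H3.3 mutations. None of the 7 genes was called in either stage. In L1 larvae, where 0.0186% of the genes tested were called (0.00621% higher and 0.0124% lower), edgeR and DESeq2 called 0 of 7. Of the 7, 0 had an unadjusted p under 0.05 in edgeR, where 543 of 16099 genes did. In embryos, where 0.0220% were called (0.00734% higher and 0.0147% lower), edgeR and DESeq2 also called 0 of 7. Again 0 had an unadjusted p under 0.05 in edgeR, where 95 of 13617 genes did. The authors' deposited table marked none of them in either stage. It marked 579 of its 16249 L1 genes and 84 of its 13692 embryo genes. The criterion behind the mark was not examined here, so these counts and the calls above may rest on unlike thresholds.

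In L1 larvae the log2 fold change of FAS43 over N2 was positive for 7 of 7 genes, with a median of 0.68, against 8008 of 16099 positive and a median of 0.00 for all genes tested (-0.0043 before rounding). The values were 0.92 for lin-29 (SE 0.726), 0.84 for hbl-1 (SE 0.729), 0.83 for lin-14 (SE 0.784), 0.68 for lin-41 (SE 0.723), 0.47 for lin-42 (SE 0.657), 0.46 for lin-46 (SE 0.703) and 0.39 for lin-28 (SE 0.602), each with an edgeR adjusted p of 0.9996. FAS43 and N2 larvae overlapped for each of the 7. The share of all genes that did so was not counted, so this overlap cannot be weighed as evidence of equal levels. Without N2 L1 replicate 2 the median was 0.21 and 5 of 7 were positive, lin-14 and lin-41 turning to -0.06 and -0.13. Without N2 L1 replicate 1, which leaves that low library as the sole N2 sample, the median was 1.41. Without FAS43 L1 replicate 1 or 2 it was 1.00 or 0.43, with 5 of 7 positive each time. The early embryo and maternal markers also had higher values in these FAS43 libraries: 11 of 11 log2 fold changes were positive with a median of 1.81, 0 called and 10 with an unadjusted p under 0.05. Their part in the result was not tested.

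In embryos 3 of 7 log2 fold changes of FAS43 over N2 were positive and the median was -0.28, against 5460 of 13617 and a median of -0.08 for all genes tested. They were -0.89 for lin-42 (SE 0.646), -0.68 for hbl-1 (SE 0.633), -0.52 for lin-14 (SE 0.646), -0.28 for lin-41 (SE 0.797; -0.275 before rounding), 0.27 for lin-29 (SE 0.911), 0.15 for lin-28 (SE 0.642) and 0.13 for lin-46 (SE 0.921), each with an edgeR adjusted p of 0.9999. The genotypes overlapped for each gene, again with no count over all genes to weigh this against. Lin-42, hbl-1, lin-14 and lin-41 were highest in N2 embryos replicate 2; without it their values were 0.18, 0.19, 1.44 and 0.29, 7 of 7 were positive and the median was 0.18, with a median of 0.17 over all genes in that fit. Without FAS43 embryos replicate 2, 4 of 7 were positive with a median of 0.10, and without N2 embryos replicate 1, 3 of 7 with a median of -0.56.

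**Figure D3:**
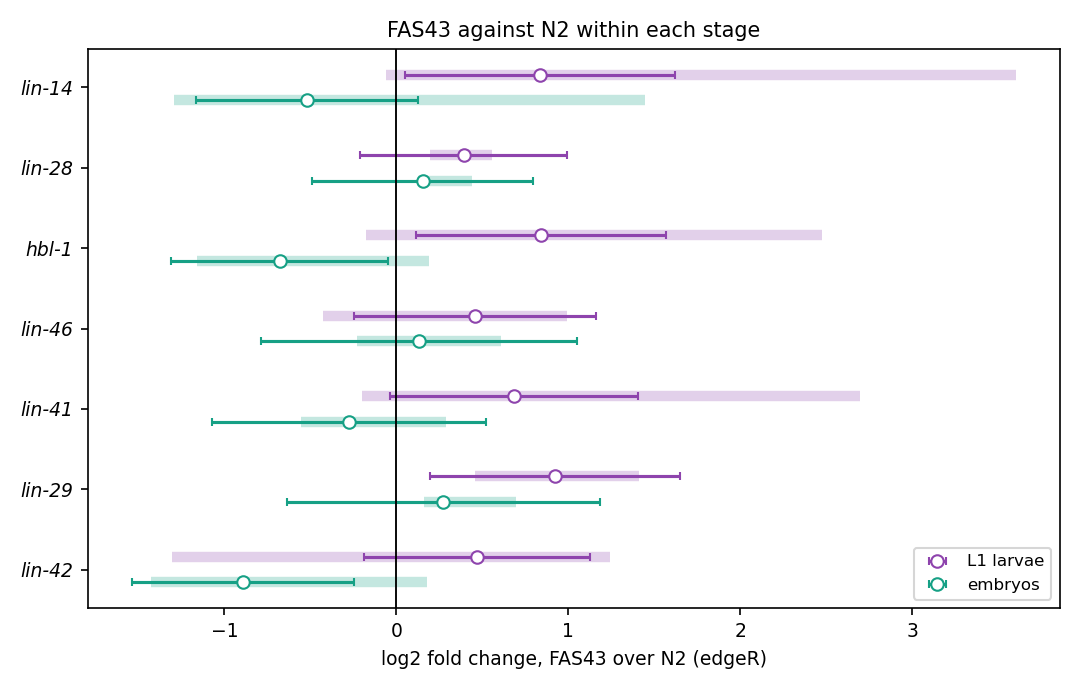
Log2 fold changes of FAS43 over N2 for each gene in L1 larvae (upper marker of each pair) and embryos (lower marker), with bars for 1 SE and pale bands for the range over the 9 alternatives. Markers are open because 0 of 7 passed the test in either stage, and most bands cross 0.

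Whether the genotype effect differed between stages was tested as an interaction over the 8 libraries, where edgeR and DESeq2 called 0.00% of the 13335 genes and 199 had an unadjusted p under 0.05 in edgeR. Of the 7 genes, 0 were called by either tool and 0 had an unadjusted p under 0.05. The estimates, as the log2 fold change of FAS43 over N2 in L1 minus that in embryos, were largest for hbl-1 (1.25, SE 1.06), lin-14 (1.11, SE 1.24) and lin-42 (1.08, SE 0.976) and smallest for lin-28 (0.10, SE 0.737), each with an edgeR adjusted p of 0.9986. The standard errors ran from 0.737 to 1.24, so moderate differences between the stages were not detectable.

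The spread within groups was itself uneven over the 7 genes. Between the N2 L1 libraries, replicate 1 exceeded replicate 2 by 12.99-fold for lin-14, 7.26-fold for lin-41 and 5.54-fold for hbl-1, while lin-28 differed 1.30-fold, lin-46 1.34-fold and lin-42 1.09-fold. Over all genes the median ratio was 1.48, and 0.142%, 0.495% and 0.915% of genes differed at least as much as lin-14, lin-41 and hbl-1. Such a gap was not particular to the 7 genes. In N2 L1 replicates 1 and 2, nhl-2 and daf-12 of the wider pathway were at 433 and 25.3 CPM and at 98.6 and 9.27 CPM. The neuron marker unc-13 was at 304 and 111 CPM, whereas tim-1 of the wider pathway was at 61.2 and 60.9 CPM. Lin-14, lin-41 and hbl-1 are all known microRNA targets, and so is lin-28. The microRNAs were not analysed, and their part in these ratios was not tested. Between the FAS43 L1 libraries the order was another: lin-42 was 5.19-fold higher in replicate 1, hbl-1 2.72-fold higher in replicate 1, and lin-41 and lin-46 3.004-fold and 3.02-fold higher in replicate 2, while lin-14 differed 1.84-fold.

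Among embryos lin-14 was the least even of the 7, as it was between the N2 L1 libraries but not between the FAS43 L1 libraries. It was 2.80-fold higher in FAS43 embryos replicate 1 than in replicate 2, and 5.25-fold higher in N2 embryos replicate 2 than in replicate 1. Hbl-1 differed 2.24-fold in FAS43 and 1.96-fold in N2, and lin-42 1.75-fold and 2.40-fold, in the same directions as lin-14. In each genotype the library with more lin-14, hbl-1 and lin-42 had the lower summed level of early embryo and maternal markers. The sums were 1292 against 3499 CPM in FAS43 and 1653 against 2926 CPM in N2. The N2 markers were not uniform. Pos-1 was at 1541 CPM in replicate 1 and 488 CPM in replicate 2. Mex-1 (47.4 and 100 CPM), mex-3 (105 and 139 CPM) and mex-5 (130 and 217 CPM) were higher in replicate 2, and the other listed markers in replicate 1. Lin-28, lin-46 and lin-29 were also higher in N2 embryos replicate 1, and lin-29 in FAS43 embryos replicate 2. The part of embryo age in these values was not tested.

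**Figure D4:**
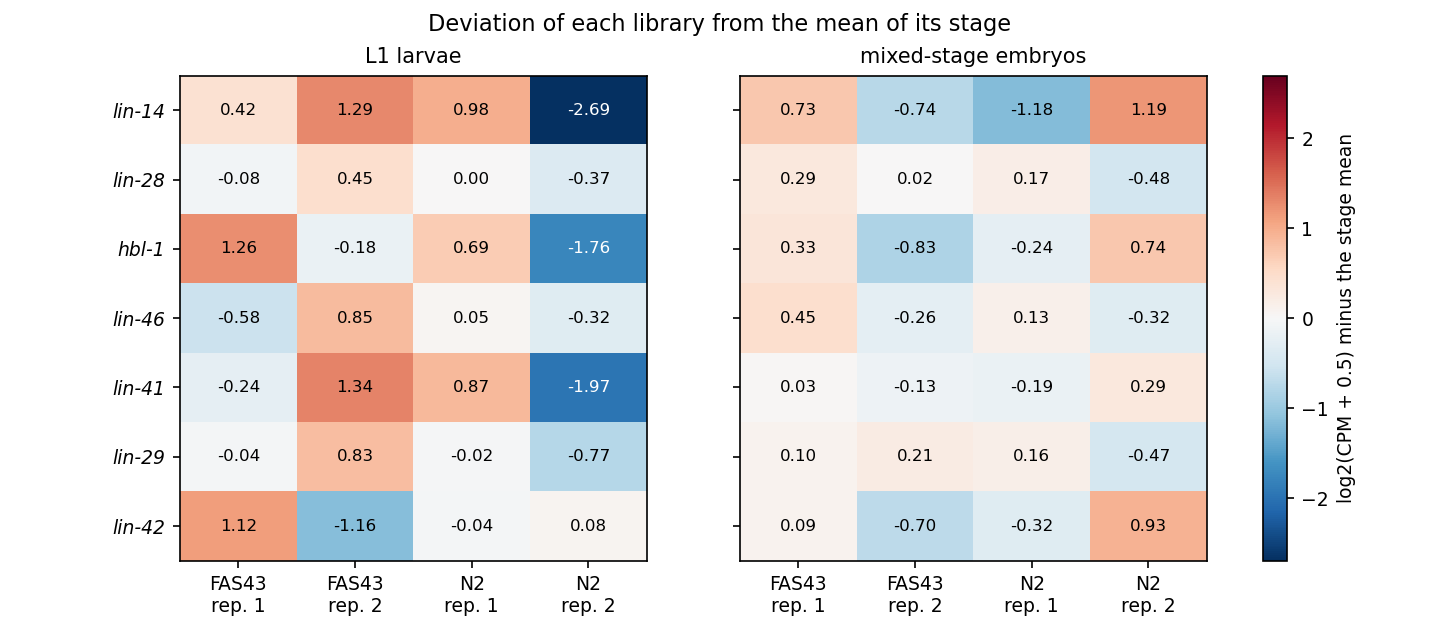
Log2(CPM + 0.5) of each gene in each library minus the mean of that gene over the 4 libraries of the stage, with red above and blue below the mean. N2 L1 replicate 2 lies at -2.69 for lin-14, -1.97 for lin-41 and -1.76 for hbl-1, and lin-14 ranges from -1.18 to 1.19 among embryos.

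Lin-42 was set beside the molting cycle and cuticle list because its message is known to cycle with the molts. The 15 of 18 listed genes present in both tables, lin-42 not among them, summed to 3206 and 439 CPM in FAS43 L1 larvae, 1788 and 1443 CPM in N2 L1 larvae, 6314 and 3620 CPM in FAS43 embryos and 5068 and 7152 CPM in N2 embryos. The libraries fell in the same order for lin-42 as for this sum, apart from the N2 L1 libraries, which differed 1.09-fold for lin-42 and changed places. FAS43 L1 replicate 2 was lowest on both, and N2 embryos replicate 2 was highest on both. Single listed genes did not all follow this order. In N2 embryos replicate 2, noah-1 (1484 CPM), noah-2 (1238 CPM) and mlt-11 (1141 CPM) made up much of the sum. For mlt-9 (102 CPM) and qua-1 (58.9 CPM), FAS43 L1 replicate 1 lay above every embryo library except N2 embryos replicate 2. For fbn-1 the lowest library was N2 L1 replicate 2 (18.5 CPM). For hbl-1 and the maternal list the order differed by stage. Among larvae, FAS43 L1 replicate 1 was highest and N2 L1 replicate 2 lowest on both; among embryos, FAS43 replicate 2 was lowest for hbl-1, at 285 CPM, and highest for the list, at 3499 CPM. The 10 of 11 seam and hypodermis markers summed to 451 and 306 CPM in FAS43 L1 larvae and 286 and 294 CPM in N2 L1 larvae, against 845 and 771 CPM in FAS43 embryos and 810 and 817 CPM in N2 embryos. The sum hides differences between its genes. N2 L1 replicate 2 was the lowest L1 library for lin-26 (36.9 CPM), egl-18 (30.8 CPM), elt-1 (14.8 CPM) and elt-3 (36.5 CPM). It was the highest L1 library for ceh-16 (13.2 CPM) and grd-10 (33.0 CPM). It was neither for elt-6 (20.3 CPM), rnt-1 (6.01 CPM), bro-1 (4.78 CPM) and the cuticle collagen gene dpy-7 (97.4 CPM). The part of these markers in the results was not tested.

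**Figure D5:**
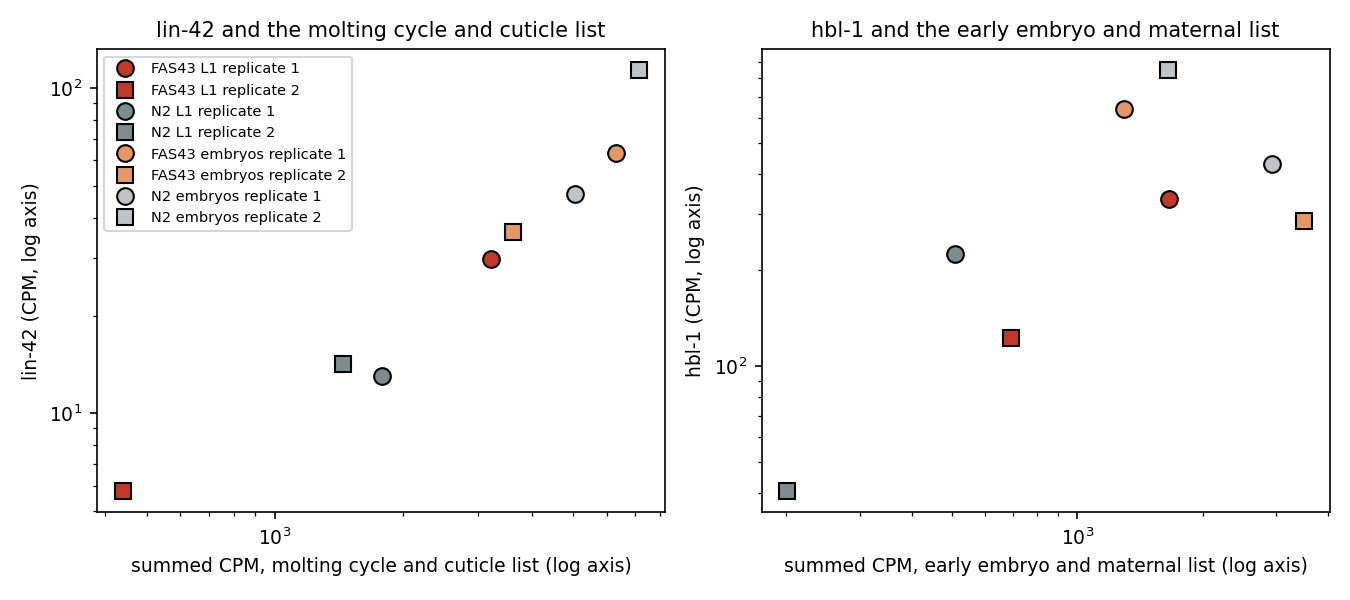
Lin-42 against the summed molting cycle and cuticle list (left) and hbl-1 against the summed early embryo and maternal list (right), in CPM on log axes, with 1 point per library. On the left the points climb from FAS43 L1 replicate 2 (439 and 5.76 CPM) to N2 embryos replicate 2 (7152 and 113 CPM), apart from the N2 L1 libraries. Not every gene of the list follows its sum. On the right FAS43 embryos replicate 2 has the highest sum (3499 CPM) and the least hbl-1 of the embryo libraries (285 CPM).

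The wider pathway was read from a list of microRNA factors, regulators and partners of the heterochronic genes, of which 29 were tested in both stages. In FAS43 L1 larvae relative to FAS43 embryos 1 rose and 0 fell, where 15.8% and 9.66% of all genes did, with a median log2 fold change of -0.15 over the list (-0.03 over all genes). In N2 L1 larvae relative to N2 embryos 0 rose and 8 fell, where 22.6% and 16.2% of all genes did, with a median of -0.93 over the list (0.00139 over all genes). Without N2 L1 replicate 2 the N2 counts were 1 higher and 0 lower; without N2 embryos replicate 1 or 2, 2 or 3 fell, and 12 fell without N2 L1 replicate 1. The fallen genes with the largest changes were alg-2, an Argonaute of the microRNA pathway (-2.25, SE 0.620, edgeR adjusted p = 0.00916), cid-1, a poly(U) polymerase gene now named pup-1 (-2.19, SE 0.623, edgeR adjusted p = 0.0111), blmp-1, a zinc-finger transcription factor (-2.03, SE 0.672, edgeR adjusted p = 0.0244), and pash-1, the partner of Drosha in microRNA processing (-1.71, SE 0.663, edgeR adjusted p = 0.0494).

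The gene that rose in FAS43 was daf-12, a nuclear hormone receptor that links growth conditions to the let-7 family. It was at 53.7 and 104 CPM in FAS43 L1 larvae, against 15.1 and 5.47 CPM in FAS43 embryos, and at 98.6 and 9.27 CPM in N2 L1 larvae, against 6.34 and 18.1 CPM in N2 embryos. Its log2 fold change of L1 over embryos was 2.94 in FAS43 (SE 0.888, edgeR adjusted p = 0.0238) and 2.14 in N2 (SE 0.860, edgeR adjusted p = 0.0559, not called). N2 L1 replicate 2 again lay within the range of the N2 embryos. Without FAS43 embryos replicate 2 or FAS43 L1 replicate 2, 0 pathway genes were called higher in FAS43. In the comparison of genotypes, 28 of 30 pathway genes had a positive log2 fold change in L1 larvae (median 0.63), where 8008 of 16099 genes did, and 4 of 29 in embryos (median -0.38), where 5460 of 13617 did. The L1 median was 0.12 without N2 L1 replicate 2, 0.40 without FAS43 L1 replicate 1 and 1.58 without N2 L1 replicate 1, and the embryo median was -0.22 without FAS43 embryos replicate 1 and turned to 0.10 without N2 embryos replicate 2. EdgeR and DESeq2 called 0 of them, and 0 had an unadjusted p under 0.05 in edgeR in either stage. The smallest p-values were those of pash-1 (1.21, SE 0.592) and cid-1 (1.01, SE 0.620) in L1 larvae, both with an edgeR adjusted p of 0.9996, and lin-66 (-0.63, SE 0.636) and nhl-2 (-0.60, SE 0.644) in embryos, both with 0.9999.

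For each of the 7 genes, the 2 genes most like it over the 8 libraries were found by the root mean square difference of log2(CPM + 0.5), each gene centred on its own mean, among 10425 or 10426 genes with a mean of at least 5 CPM. Daf-12 was nearest to lin-14 (0.386), followed by T25C12.11 (0.452), which lies inside an exon of lin-14, so that their reads may not be separate. Blmp-1 was the second nearest to hbl-1 (0.296), after Y75B8A.6 (0.236). Skr-19, one of the Skp1-related genes, followed lin-28 to within 0.0408, followed by mrpl-46, of the mitochondrial ribosome (0.118). Nearest to the others were pgp-11 (0.306) and gei-3 (0.344) for lin-41, B0393.5 (0.254) and dyf-7 (0.282) for lin-42, K07C11.7 (0.140) and upp-1 (0.149) for lin-46, and ptr-23 (0.220) and M163.1 (0.233) for lin-29. These are descriptions of likeness in libraries that share 2 stages. Among the 7 genes themselves, the closest pair was lin-46 and lin-29 (0.434) and the most distant lin-41 and lin-42 (3.20).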

How the data were processed

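RNA was measured in 8 libraries in 4 groups of 2. Per the labels' protocols, stranded TruSeq mRNA libraries were sequenced. WBcel235, edgeR 3.10.5, HTSeq 0.6.1 and TopHat2 2.0.13 are named per the submitters' processing notes; roles and strand setting: not given in the sources used here. As raw values, the authors deposited counts per gene, the only values tested here. They also deposited a normalized signal (the count divided by a constant per library), log2 fold changes, log2 mean abundances and p-values. Listed genes have at least 10 counts in at least 2 libraries.

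Counts were tested with edgeR 4.0.16 (R 4.3.3): filterByExpr, TMM factors, quasi-likelihood F-test, Benjamini-Hochberg adjustment over all tested genes, threshold 0.05. Genotype was fitted within each stage (13617 embryo and 16099 L1 genes). Stage and interaction were tested in 1 fit of 8 libraries over 13335 genes. The scaling of that fit gives every CPM here except the sum of the L4 and adult markers, scaled over the L1 libraries only. The SE was obtained by dividing the size of the log2 fold change by the root of its F statistic. Alternatives were DESeq2 1.42.0, RLE factors, no filter, replicate blocks and leaving out each library. The procedure was run on simulated counts as a check of the code, and no result given here rests on that run. Positions and exonic lengths come from the Ensembl annotation of WBcel235. The genes, lists and naming rule were chosen with earlier results of these data known: pathway genes named are the called ones with the largest changes, up to 4 per direction, and those with the 2 smallest p per genotype comparison. Symbols were matched by gene ID (hrpk-1 and lep-5 are listed under sequence names). Lists are described by counts and medians, with no test of the list.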

Additional observations from a re-analysis of the deposited data

How the results depend on the processing

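The number of heterochronic genes called between L1 larvae and embryos depended on single libraries. In N2 it was 3, and 1 to 3 when each library was left out in turn; lin-41, lin-42 or hbl-1 lost its call in 7 of 84 values and 2 gained one. In FAS43 it was 1, against 3 with DESeq2, 2 with RLE factors, 2 with a replicate block, and 1 to 4 with a library left out, and lin-41 was called throughout. The calls over all genes moved too: in FAS43 from 2113 higher and 1288 lower to 237 and 204 without FAS43 embryos replicate 2 and 719 and 17 without FAS43 L1 replicate 2, and in N2 from 3014 and 2157 to 1174 and 509 without N2 embryos replicate 1 and 1957 and 803 without N2 L1 replicate 2. The cause was not tested.

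The genotype comparisons and the interaction called 0 of 7 under every alternative run, including the replicate block. The labels do not say whether replicate numbers pair the samples. Deviations of same-numbered libraries correlated at -0.46 between FAS43 and N2 embryos and -0.13 between FAS43 and N2 L1 larvae. Between groups of different stages the correlations ran from -0.25 to 0.25. With 2 libraries per group, these values cannot show whether the numbers pair samples. With the replicate block 3 genes were called between stages in N2, and crossing the numbers, a fit added after seeing the data, called 0 in each genotype comparison. The alternatives for the pathway list were also added after seeing the data. Directions were less stable. For FAS43 over N2 in L1, lin-42 was -0.014 with the replicate block and -0.015 with crossed numbers. With a library left out, L1 log2 fold changes ran from -0.059 to 3.601 for lin-14, -0.20 to 2.70 for lin-41, -1.31 to 1.24 for lin-42, -0.43 to 1.00 for lin-46 and -0.18 to 2.48 for hbl-1. In embryos they ran from -1.29 to 1.44 for lin-14, -0.56 to 0.29 for lin-41, -1.43 to 0.18 for lin-42, -0.23 to 0.61 for lin-46 and -1.16 to 0.19 for hbl-1. Between stages in N2, lin-14 ran from -1.43 to 3.02. Interaction values ran from -0.53 to 3.92 for lin-14, -0.27 to 0.39 for lin-28, -0.17 to 2.88 for lin-41, -0.61 to 1.82 for lin-42, -0.82 to 0.74 for lin-46 and -0.023 to 1.08 for lin-29. Where a library was left out, the lone library of its group was assumed to vary like the other groups. Lin-46 and lin-29, with 26 to 163 and 26 to 118 counts per library, are limited by depth as well as by spread.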
